A study of Homo sapiens with 14 samples.

Results

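To describe the widest H3K4me3 regions of the human hepatic stellate cell line LX-2, which is immortalised, the 4 H3K4me3 peak lists were merged wherever peaks shared at least 1 bp. A broad domain was a merged region that was called in all 4 lists, measured 2000 bp or more and overlapped no H3K27me3 peak in any list. Of 20393 merged regions, 16098 were called in all 4 lists and 1784 were broad domains, which is 8.75% of all regions and 11.1% of those in all 4 lists. A further 13802 regions in all 4 lists were free of H3K27me3 and under 2000 bp, and these served as the narrower regions throughout. Another 512 overlapped H3K27me3, of which 28 were 2000 bp or wider and were left out by that criterion, and 1 wide region was left out because it was not in all 4 lists. The domains were thus selected on merged width, H3K4me3 calls and H3K27me3 calls, and these values are given as a description.

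The cells were grown for 2 days on a soft or a stiff polyacrylamide matrix coated with fibronectin, the soft one meant to resemble normal and the stiff one cirrhotic liver. The labels give no allele or added agent for any group. CUT&Tag, which sequences the DNA fragments cut out by a transposase tethered to an antibody, gave 14 peak lists. H3K4me3, H3K27me3 and phosphorylated JUN (p-JUN) had 2 libraries per matrix, and H3K27ac had 1 merged list per matrix, so its replicate error is unknown. The libraries of each matrix are replicates of 1 cell line, which the study's methods call biological, so p-values measure the spread between samples of that line. TCP stood in the titles of both p-JUN libraries labelled stiff, where the other stiff libraries carried 40K. The study uses TCP for culture plastic, so the p-JUN contrast is between libraries labelled soft and stiff and may be between soft matrix and plastic. Median summit fragments ran from 120 to 207 in the H3K4me3 lists and from 60 to 64 in the p-JUN lists, with 26 and 27 in the H3K27ac lists, and the highest H3K4me3 value was that of stiff replicate 2.

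H3K4me3 is laid down by the SET1 and MLL (KMT2) enzyme complexes and marks the promoters of transcribed genes, most of which lie in CpG islands. A typical promoter carries a short peak on the nucleosomes that flank the start site. At some genes the mark spreads far into the gene body, and such broad domains are known for marking genes of cell identity and tumour suppressors. H3K27me3, the mark of Polycomb repression, can share promoters with H3K4me3, and those promoters are outside the set described here. JUN pairs with FOS family proteins to form AP-1, which binds TGACTCA and its reverse complement TGAGTCA, and with ATF family proteins, which bind the cyclic AMP response element TGACGTCA.

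Few of the p-JUN summits in the domains lay at an AP-1 motif. The 4 sites shown first are where p-JUN and its motif coincided at a domain. Each is a p-JUN region that overlapped a domain and was called in all 4 p-JUN lists. The motif had to lie within 50 bp of a summit in every list. Windows in annotated untranslated regions or on chromosomes 8 and 18 were left out. Of the sites that remained, these had the highest mean p-JUN fold. The fold of a peak is the authors' ratio of its summit to the local background. Each window is 61 bp of GRCh37, plus strand, with the motif in capitals. The first lies in an exon of the long noncoding RNA LINC00944 (chr12:127257041-127257101). The second lies in an intron of the kinase gene MAST2 (chr1:46268546-46268606). The third is in a domain with no start site of a named gene within 1 kb. Its window overlaps an annotated exon of ADAMTS16, a secreted metalloproteinase gene, and an unnamed noncoding gene (chr5:5146183-5146243). The last lies upstream of the transcription elongation factor gene ELL, in no annotated gene (chr19:18633209-18633269).
LINC00944: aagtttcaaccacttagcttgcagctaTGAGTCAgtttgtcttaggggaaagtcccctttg
MAST2: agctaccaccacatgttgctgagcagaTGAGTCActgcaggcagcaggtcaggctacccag
ADAMTS16: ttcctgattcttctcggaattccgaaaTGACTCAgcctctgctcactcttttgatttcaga
ELL: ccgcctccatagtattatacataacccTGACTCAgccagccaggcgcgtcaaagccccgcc
The p-JUN fold at LINC00944 was 16.9 and 15.9 on soft, against 16.6 and 17.8 in the libraries labelled stiff. At MAST2 its values were 14.4 and 13.7 on soft, against 13.6 and 13.2 on stiff. The ADAMTS16 site had 13.2 and 13.0 on soft, against 12.6 and 14.2 on stiff. ELL had 13.3 and 13.0 on soft, against 12.7 and 13.8 on stiff. In each of the 4 the soft and stiff libraries lay close together, and at MAST2 alone of these sites both stiff libraries were below both soft libraries.

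Most domains lay instead on CpG-rich promoters. The 150 bp upstream of the start of 3 wide domains are shown with every CpG in capitals, in the direction of the gene, which is the minus strand of GRCh37 for all 3. They belong to AJUBA, a LIM protein of cell junctions that binds LATS kinases (chr14:23451761-23451910), to EPHA2, an ephrin receptor (chr1:16482565-16482714), and to KMT2D, an H3K4 methyltransferase (chr12:49454578-49454727).
AJUBA: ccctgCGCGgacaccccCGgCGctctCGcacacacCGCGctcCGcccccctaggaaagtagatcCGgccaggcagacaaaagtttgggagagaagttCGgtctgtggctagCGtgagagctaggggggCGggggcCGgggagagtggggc
EPHA2: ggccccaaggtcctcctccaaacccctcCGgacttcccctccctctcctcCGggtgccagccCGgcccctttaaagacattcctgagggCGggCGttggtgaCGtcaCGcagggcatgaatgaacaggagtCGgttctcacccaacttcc
KMT2D: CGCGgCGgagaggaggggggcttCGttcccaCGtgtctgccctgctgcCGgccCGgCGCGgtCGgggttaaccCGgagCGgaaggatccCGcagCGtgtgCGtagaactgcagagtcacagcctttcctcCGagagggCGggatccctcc
These windows held 13, 8 and 17 CpGs in that order, and none held an AP-1 motif. The EPHA2 window held 1 TGACGTCA, and a p-JUN summit lay 1 to 65 bp from its middle in every library. The AJUBA window held 2 GGGCGG motifs, and the nearest p-JUN summit was 4753 bp away or further in every library. The AJUBA and EPHA2 windows also overlapped the bodies of the divergent noncoding genes AJUBA-DT and EPHA2-AS1.

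The domains ranged from 2000 to 4613 bp in merged width, with a median of 2279.5 bp and quartiles of 2115 and 2558.25 bp, and covered 4.28 Mb in all. They form no separate class by width. Within 100 bp of the limit there were 394 domains just above and 422 regions just below. The members nearest above 2000 bp were at CLN6 and at ATG3 and SLC35A5 (2000 bp each) and at TMEM18 (2001 bp). The regions nearest below were at MBLAC2 and POLR3G, at ANTXR1 and at FZR1 (1999 bp each).

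The widest domain, at chr6:26195705-26200317, spanned the replication-dependent histone genes H2AC7 and H3C4, which supply histones H2A and H3 in S phase. Its peaks covered 3940 and 4541 bp on soft and 4613 and 4529 bp with stiff matrix. A second histone cluster domain, at BOLA1, H2AC20, H2AC21 and H2BC21, had a merged width of 4083 bp. SSTR1, which encodes a somatostatin receptor, followed at 4210 bp, and its covered width differed little between libraries, at 4011 and 4081 bp on soft and 4019 and 4056 bp on stiff. ADM encodes the vasodilator peptide adrenomedullin, and its domain of 4204 bp covered 3260 and 3741 bp on soft and 4028 and 4204 bp on stiff. The domain of TBX3, a developmental transcription factor gene, measured 4097 bp. NIPBL, the cohesin loader, had a domain of 3984 bp. The MYC domain measured 3928 bp and covered 2943 and 3454 bp on soft and 3801 and 3897 bp on stiff. In ADM, TBX3 and MYC both stiff libraries were wider than both soft libraries, while those of SSTR1 overlapped. These widths are not centred on the library medians, and the merged width that ranks the domains follows the widest library. After centring, that order held in 15.9% of domains (16% of all regions) and the reverse order in 22.4% (22.6% of all regions). Also among the 10 widest were ANXA2R at 3895 bp and FAM72B at 3980 bp. FAM72B has near-identical copies, so its reads may belong to a copy and its values are uncertain.

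**Figure D1:**
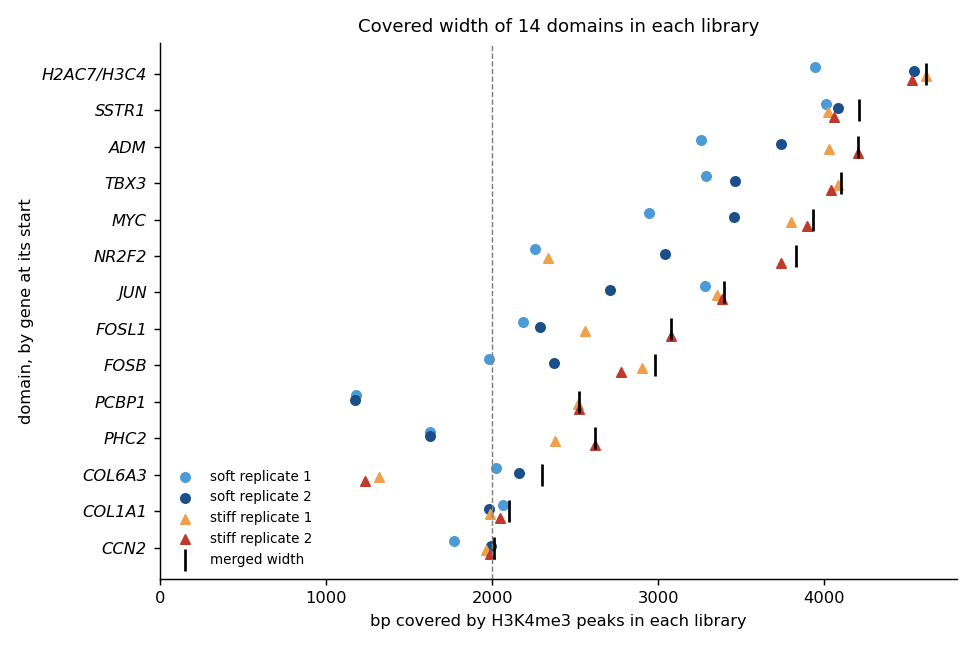
Bases covered by H3K4me3 peaks in each of the 4 libraries (points) at 14 domains, named by the gene at their start, with the merged width as a bar and the 2000 bp limit as a dashed line. The domains of PCBP1 and PHC2 were under 2000 bp in both soft libraries and above it in both stiff libraries, and that of COL6A3 the reverse.

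A domain was tall in fragments but low in fold. At its summit the median domain held 220 and 277 fragments (soft) and 301 and 434 (stiff), against 126, 155, 159 and 232 in the narrower regions in the same order. The local background of the domains was 33.4, 41.1, 42.3 and 62.1 fragments, against 13.4, 16.3, 16.3 and 23.7 in the narrower regions. Their summit fold was therefore the lower, at 6.49 and 6.72 on soft, against 6.996 and 6.95 on stiff, where the narrower regions had 9.01, 9.32, 9.54 and 9.74. By merged width, the median fold fell from 10.5 at 1000 to 1499 bp to 4.74 at 3000 bp or more. The background was solved for from the fold and p of each peak, and how the authors' caller set it is not given. The higher background and lower fold may be partly fixed by the selection on width, which was not tested. The ranks of the covered widths of the 1784 domains had a Spearman rho of 0.7998 between the soft libraries, 0.810 between the stiff libraries and 0.690 to 0.788 across matrices, which describes regions of shared selection and is no test.

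Nearly every domain lay at a gene start. Of the 1784, 1668 (93.5%) had a protein-coding start within 1 kb, against 76.5% of the narrower regions, 90 had the start of a noncoding gene alone and 26 had no annotated start. More than 1 coding gene started inside 376 domains (21.1%), against 6.58% of the narrower regions. A wider region has more room for a start, so these differences are partly fixed by the selection on width. The median width was 2279.5 bp in domains and 1160 bp in narrower regions. Start sites are in GENCODE release 44 mapped to GRCh37, and these differences were not tested. The domains had a median CpG observed over expected ratio of 0.725 and the narrower regions 0.675, at GC contents of 57.9% and 58.7%. A contrast among the widest was ANKRD28, an ankyrin repeat gene, whose domain of 3655 bp had a GC content of 34.3%.

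In the 1105 domains with 1 coding start inside, the mark reached a median of 755 bp upstream and 1568 bp downstream, and it reached further downstream in 931 (84.3%). The narrower regions had the same lean, with 378 bp upstream, 920 bp downstream and 84.6% further downstream. At the start itself, H3K4me3 peaks covered 87.7% and 86.4% of these domains on soft matrix, against 93.6% and 98.8% on stiff. The narrower regions had the same order, at 91.1% and 90.6% on soft and 94.6% and 98.6% on stiff. In the domains coverage was highest 600 and 650 bp downstream on soft and 450 and 200 bp downstream on stiff.

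Where a library split a domain into several peaks, most gaps lay near a coding start in 3 of the 4 libraries. In 1332 domains (74.7%) each library held a single peak, and in 452 at least 1 library split the domain. The share split was 16.6% and 18.4% on soft, against 12.9% and 1.63% on stiff, with median gaps of 368 to 395 bp. A coding start lay in the gap or within 200 bp of it in 66.8% and 77.1% of the soft gaps, 62.9% of those in stiff replicate 1 and 20.7% of the 29 in stiff replicate 2. A p-JUN summit of any of the 4 p-JUN lists lay in 39.7%, 44.6%, 31.5% and 6.90% of these gaps or within 200 bp of them, in the same order. A coding start lay inside 89.9% of all domains. The shares for other stretches of a domain of the same length were not computed. These gap shares are therefore descriptions and do not show that gaps favour starts or p-JUN. Stiff replicate 2, which held the fewest splits, was also the library with the most fragments, and 143 domains were split in all 3 other libraries and whole in it. Its depth was not set equal to that of the others, and the part of depth in the splits was not tested. Both soft libraries and neither stiff library split 60 domains, and 2 domains showed the reverse.

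**Figure D2:**
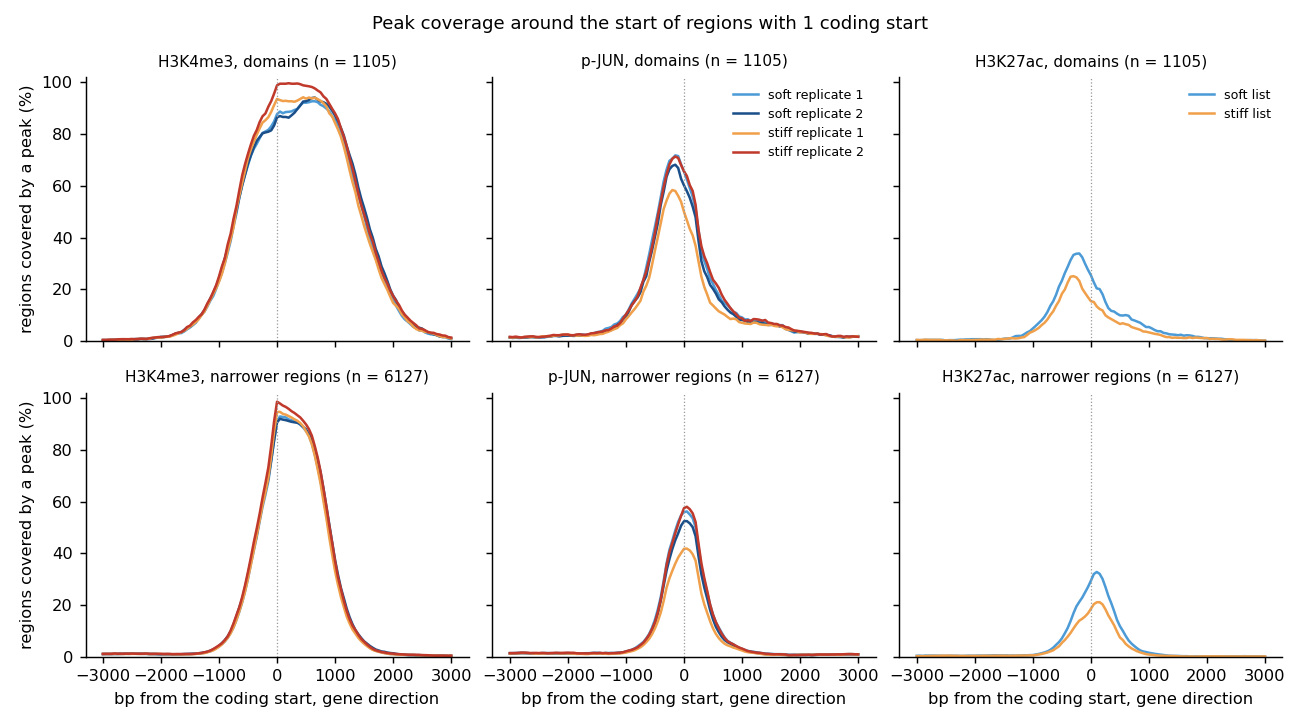
Share of regions covered by a peak (y axis, percent) at each distance from the coding start in the gene's direction (x axis, bp), for the 1105 domains and 6127 narrower regions with 1 coding start, in each library of H3K4me3 and p-JUN and each H3K27ac list. In the domains H3K4me3 extended furthest downstream, and p-JUN and H3K27ac were highest 150 to 300 bp upstream of the start.

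Among the gene lists examined, those of YAP and TAZ targets, contractile genes and matrix genes had the highest shares of genes at a domain. Of all 19447 protein-coding genes, 2052 (10.6%) had a start within 1 kb of a domain, which is 16.1% of the 12772 with any H3K4me3 region. The counts below are descriptions without a test, and the lists were chosen with earlier results of these data known.

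YAP and TAZ are coactivators that enter the nucleus on stiff surfaces and act through TEAD factors. Of 22 genes of YAP, TAZ, TEAD and their targets, 16 (72.7%) had a domain. WWTR1, which encodes TAZ, had a domain of 2538 bp, while the YAP1 region was 1790 bp wide and fell short. The secreted matricellular targets CCN1 and CCN2 had domains of 2450 and 2010 bp. CCN2 covered 1774 and 1993 bp on soft and 1966 and 1988 bp on stiff, and the matrices overlapped. NT5E, an ecto-nucleotidase, had 3342 bp, F3, tissue factor, 2870 bp, and AXL, a receptor kinase, 2804 bp. Of the kinases and TEAD factors of this list, LATS1, TEAD1, TEAD3 and TEAD4 lay in narrower regions, LATS2 in a region called in some lists only, and TEAD2 at a domain of 2272 bp.

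Of 37 actin, adhesion and contractile genes, 16 (43.2%) had a domain. The crosslinker gene ACTN4 led with 3682 bp, followed by the myosin light chain gene MYL12B with 3129 bp and the tropomyosin gene TPM1 with 2841 bp. PXN (paxillin), VCL (vinculin), TLN1 (talin) and the integrin subunit genes ITGAV and ITGA5, all of focal adhesions, had domains of 2772, 2331, 2041, 2082 and 2023 bp. Of 34 matrix and crosslinking genes, 14 (41.2%) had one. These included FBN1, fibrillin, with 2795 bp, FN1, fibronectin, with 2494 bp, and the collagen crosslinking enzymes LOX, LOXL1 and LOXL2 with 2225, 2262 and 2193 bp. VCAN, a large proteoglycan, had a region of 2245 bp that overlapped H3K27me3 and was left out for that reason.

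Of 29 genes of the JUN and FOS family and MAP kinases, 9 (31.0%) had a domain. All were either AP-1 or ATF factors or DUSP phosphatases, which switch MAP kinases off. JUN measured 3393 bp, FOSL1 3079 bp, FOSB 2978 bp, JUNB 2712 bp, FOS 2404 bp and ATF4 2358 bp, and the phosphatase genes DUSP1, DUSP4 and DUSP6 2703, 2414 and 2381 bp. None of the MAPK, MAP2K and MAP3K genes of the list had one, and JUND (1210 bp) and FOSL2 (1975 bp) fell short. ATF3 had 2413 bp but overlapped H3K27me3. Of 29 growth control genes, 9 had a domain, among them MYC, the kinase gene CDK6 (3578 bp), the CDK inhibitor genes CDKN2C (3330 bp) and CDKN1B (3189 bp), and RB1 (2200 bp).

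Of 27 TGF-beta pathway genes, 6 (22.2%) had a domain. The ligand genes TGFB1 and TGFB2 measured 2754 and 2917 bp, the signal carrier SMAD3 2660 bp and the inhibitors SMAD7 and SKI 2395 and 2987 bp. None of the receptor genes TGFBR1, TGFBR2 and TGFBR3 had one. Of 33 mesenchymal transcription factors 7 had a domain, with TBX3 and the orphan receptor NR2F2 (3826 bp) ahead of FOXF1, FOXP1, RUNX1, SNAI2 and TCF4 at 2255 to 2612 bp. Of 19 growth factor receptors 4 had one, EPHA2 (3414 bp), AXL, DDR2 (2436 bp) and FGFR1 (2380 bp), and both PDGF receptor genes lay in narrower regions. Of 20 genes of H3K4 methyltransferases and demethylases, KMT2D (3405 bp), KDM5A (2161 bp) and KDM1A (2094 bp) had one. The ribosomal protein genes, which are highly transcribed, had 5 of 51 (9.80%), close to the share of all coding genes.

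Of 15 stellate and myofibroblast markers, VIM (2595 bp), SPARC (2430 bp), TAGLN (2394 bp) and COL1A1 (2105 bp) had a domain, and ACTA2, the smooth muscle actin gene, missed the limit at 1940 bp. PDGFRA, PDGFRB, THY1 and TIMP1 lay in narrower regions and COL3A1 was marked in some lists. COL1A2, DCN, DES, LRAT and LUM had no H3K4me3 region. The name of stellate cell is the study's name for the line and does not rest on these markers. Of the 7 hepatocyte markers, ALB and HNF4A among them, none had an H3K4me3 region. No endothelial (PECAM1 was not analysed here), leukocyte or cholangiocyte marker had a domain, and 1, 1 and 2 of them lay in narrower regions.

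**Figure D3:**
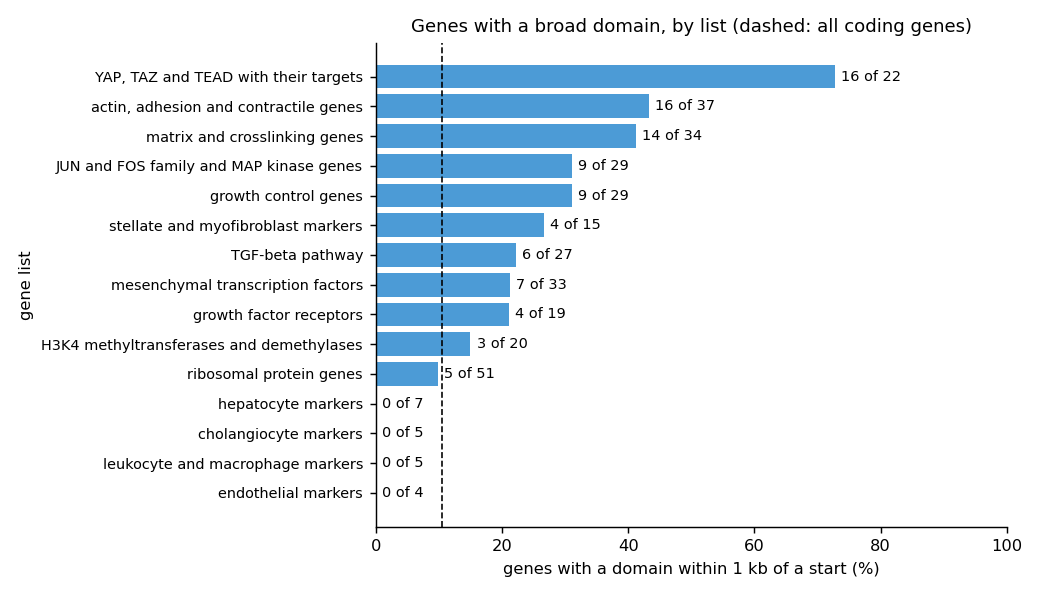
Percent of the genes of each list with a broad domain within 1 kb of a start site (bars, with counts), beside the 10.6% of all protein-coding genes (dashed line). The list of YAP, TAZ, TEAD and their targets had the highest share, with 16 of 22 genes, and the ribosomal protein genes had 5 of 51.

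To ask whether the domains changed with the matrix, the bases covered in each library were compared. The median domain covered 2097 and 2134.5 bp on soft and 2107 and 2193.5 bp on stiff. The log2 ratio of stiff to soft was 0.023 (two-sided exact permutation test, p = 0.667, where the smallest p that 2 libraries against 2 allow is 0.33), and without stiff replicate 2 it was -0.0060. Reaching 2000 bp in a single library were 1181 and 1306 domains on soft and 1180 and 1454 on stiff. A stronger mark per cell and a mark in more of the cells cannot be told apart in these bulk libraries.

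With all 4 libraries, no single domain passed the test for a change in covered width. In the limma fit on log2 covered width, centred on each library's median, 0 of 1784 domains were called at an adjusted p under 0.05 (0% of all 16098 regions called), and the lowest adjusted p among them was 0.106. Without soft replicate 1 there were 20 domains called (1.12%, against 1.19% of all regions), without soft replicate 2 there were 41 (2.30%, against 1.60%), and without either stiff library 0. At an unadjusted p under 0.05 there were 201 domains (11.3%) against 8.42% of all regions. After centring, both stiff libraries lay above both soft libraries in 283 domains (15.9%, against 16% of all regions) and below them in 399 (22.4%, against 22.6%). A region that is wide in 1 matrix alone can enter the set through that matrix, so the extremes named next are partly fixed by the merged width.

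Of the 5 domains with the lowest p in that fit, 4 are given as values. PCBP1, an RNA-binding protein gene, covered 1182 and 1173 bp on soft and 2515 and 2522 bp on stiff, a log2 difference of 1.07 with an SE of 0.05. PHC2, a Polycomb subunit gene, covered 1628 bp in both soft libraries and 2381 and 2617 bp on stiff. In these both stiff libraries were wider than both soft libraries. A domain at the small nuclear RNA genes RNU6-7 and RNU6-8 covered 1669 and 1674 bp against 2487 and 2497 bp. U6 RNA genes occur in many copies, so its reads are uncertain. COL6A3, a chain of microfibrillar collagen VI, was narrower on stiff, at 2023 and 2164 bp on soft and 1319 and 1238 bp on stiff, a log2 difference of -0.74 with an SE of 0.08. All 4 had the same adjusted p of 0.106 in limma.

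The call depended on how width was measured. With the longest single peak in place of all covered bases, 44 domains were called wider on stiff (2.47%, against 0.485% of all regions) and 1 narrower (0.0561%, against 0.0311%). The merged width that selected the domains counts bases bridged in any library, so a region split on soft and whole on stiff can enter through the stiff libraries, and the higher share is partly fixed by the selection. Among them were PAWR, a pro-apoptotic gene, at 769 and 810 bp on soft and 2683 and 2952 bp on stiff (limma adjusted p = 0.0276), and SUV39H2, an H3K9 methyltransferase gene, at 762 and 776 bp against 1953 and 2106 bp. PAWR was split into 3 peaks in both soft libraries and SUV39H2 into 2, and both were whole on stiff. Their covered widths were closer, at 2083 and 2252 bp against 2683 and 2952 bp for PAWR. The calls numbered 0 without stiff replicate 1 and 0 without stiff replicate 2, and 145 and 124 without soft replicate 1 and 2.

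The height of the domains was compared next. The median summit fold had a log2 ratio of stiff to soft of 0.08 (two-sided exact permutation test, p = 0.333, the smallest the design allows). In the limma fit on log2 fold 0 of 1784 domains were called (0% of all regions), with 110 (6.17%) at an unadjusted p under 0.05 against 9.98% of all regions. The lowest p among the domains belonged to MIRLET7BHG and PRR34, a let-7 host gene region, with folds of 4.69 and 4.24 on soft, against 3.23 and 3.26 on stiff. The domain of CNOT7, a deadenylase gene, and VPS37A had 5.86 and 6.63 on soft and 8.72 and 9.18 on stiff. GADD45B, a stress-response gene, had 5.03 and 4.97 on soft, against 4.09 and 4.06 on stiff. The other 2 had no start of a named gene within 1 kb. Their folds were 3.69 and 3.94 on soft against 5.43 and 5.41 on stiff, and 7.14 and 6.98 against 5.41 and 5.59. The limma adjusted p was 0.394 for all 5.

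On the scale of fragments at the summit, centred on each library's median, 99 domains were called higher on stiff (5.55%, against 2.25% of all regions) and 11 lower (0.617%, against 2.14%). A region that is strong and wide in 1 matrix alone can enter the set through that matrix, so these shares may be partly fixed by the selection. JUN held 240 and 319 fragments on soft, against 494 and 675 on stiff (log2 difference after centring 0.60, SE 0.08, limma adjusted p = 0.00187). FOSL1, which encodes the AP-1 factor FRA1, held 296 and 389 on soft and 578 and 783 on stiff (log2 difference 0.52, SE 0.07, limma adjusted p = 0.00199). A histone domain at H2AC19 and H3C15, genes with near-identical copies, held 199 and 225 against 364 and 536, and CFL1, cofilin, with MUS81 held 334 and 422 against 590 and 901. The lowest p belonged to a domain at chr17:39264527-39266706, with no start of a named gene within 1 kb. It held 41 and 47 fragments on soft, against 140 and 219 on stiff. In each of these the stiff libraries lay above the soft libraries in raw counts. That order is not particular to them, since the median domain had it too (soft 220 and 277, stiff 301 and 434). Across all regions called in all 4 lists the medians ran likewise (soft 134 and 166, stiff 171 and 248). Only the centred differences set these domains apart from the level of their libraries. The local background of JUN also differed, at 54.8 and 69.7 fragments on soft, against 93.7 and 144.6 on stiff, and its fold was 4.32 and 4.53 against 5.23 and 4.64. The number of domains called was 163 and 170 without soft replicate 1 and 2, and 51 and 49 without stiff replicate 1 and 2. Whether the total signal of a library affects this was not tested.

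p-JUN peaks lay in most of the domains. A p-JUN peak overlapped 87.2% (95% Wilson interval 85.6 to 88.7) and 85.0% (83.3 to 86.6) of them on soft, and 77.6% (75.6 to 79.5) and 89.0% (87.4 to 90.3) in the libraries labelled stiff. The intervals cover counting error only. In the narrower regions the shares were 61.2% and 58.1% on soft and 50.1% and 61.8% on stiff. A wider region has more room for a peak, so the share with a p-JUN summit within 500 bp of the H3K4me3 summit was compared too. This window follows the H3K4me3 summit and not the gene start. Around the coding start of domains, H3K4me3 coverage was highest 200 to 650 bp downstream and p-JUN coverage 150 to 200 bp upstream. In narrower regions both were highest 0 to 50 bp downstream. The window may thus miss p-JUN at the start more often in domains, which was not tested. In the domains it came to 53.98% and 51.6% with soft and 47.3% and 54.8% with stiff, against 51.9%, 49.2%, 42.5% and 52.4% in the narrower regions. The domains were higher in all 4 libraries, by 2.07, 2.44, 4.82 and 2.37 percentage points (two-sided exact sign-flip permutation test, p = 0.125, the smallest that 4 libraries allow). Among regions with a coding start within 1 kb the mean difference was 5.35 points, with a window of 1000 bp it was 14.5 points, and for domains of 3000 bp or more it turned to -2.21 points. Per kb, domains held 0.373 to 0.436 p-JUN peaks and narrower regions 0.433 to 0.536.

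p-JUN was found in all 4 lists at 1343 domains (75.3%), against 46.8% of the narrower regions, and in none at 141 (7.90%), against 32.0%. In both soft lists alone it was found at 14 domains (0.785%, against 1.398% of all regions in 4 lists) and in both stiff lists alone at 3 (0.168%, against 0.280%). CAVIN1, a caveola coat gene, had the most p-JUN peaks, with 3 in each library. KDM6B, an H3K27 demethylase gene, had 3 and 3 on soft and 2 and 2 on stiff, and FOSB and UTRN, the utrophin gene, had 3 and 2 on soft and 3 and 2 on stiff. A region at SLC7A5P2 held 11 peaks over the 4 lists, but it is a pseudogene with close copies and uncertain. The widest domains without p-JUN in any list were NR2F2 (3826 bp), AJUBA (3824 bp), the noncoding LINC01962 and TRIM7-AS2 (3167 bp), TRAF7, a ubiquitin ligase gene (3137 bp), and MDGA1, a cell surface protein gene (3083 bp). PXN, TGFB1, CCN1 and SMAD7 also had none.

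The p-JUN signal sat at the start of the gene. Of the p-JUN summits in domains, 76.0% and 77.0% on soft and 74.9% and 76.0% on stiff lay within 500 bp of a coding start. p-JUN coverage was highest 150 to 200 bp upstream of it, where 58.4% to 71.8% of the domains were covered. By 1000 bp downstream, where H3K4me3 peaks covered 84.3% to 88.0% of the domains, p-JUN covered 7.06% to 9.14%. In narrower regions its highest coverage lay 50 bp downstream.

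Between the matrices, the share of domains with p-JUN differed by -2.83 percentage points, stiff minus soft (two-sided exact permutation test, p = 1). The lowest library and the highest were both labelled stiff, and without stiff replicate 1 the difference was 2.83 points. Of 40433 p-JUN regions called in all 4 p-JUN lists, 1459 lay in a domain, and 0 of them were called in the limma fit on log2 fold (0% of all p-JUN regions called), with 75 (5.14%) at an unadjusted p under 0.05 against 9.33% of all. The lowest p belonged to SIK2, a salt-inducible kinase gene, with p-JUN folds of 8.96 and 8.23 on soft and 5.42 and 6.47 on stiff (limma adjusted p = 0.323). At GART and SON the fold came to 7.87 and 7.40 on soft, against 5.52 and 5.51 on stiff, at PPM1B, a phosphatase gene, 6.63 and 6.64 against 4.88 and 4.81, and at TLN1 with CREB3 4.63 and 5.35 against 3.22 and 3.85. PIGN with RELCH went the other way, at 7.003 and 6.11 on soft and 9.28 and 9.88 on stiff. These regions had the lowest p in the fit, so the lack of overlap between their groups is partly fixed by that choice. None passed the adjusted threshold. The share without overlap among all p-JUN regions was not analysed here.

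In fragments, most p-JUN regions called in domains were lower in the libraries labelled stiff. After centring, 190 of the 1459 regions were called lower (13%, against 7.38% of all p-JUN regions) and 6 higher (0.411%, against 6.15%). The median p-JUN region in a domain held 79 and 70 fragments on soft, against 58 and 76 on stiff, and the median over all p-JUN regions 82 and 70 on soft and 73 and 85 on stiff. TMSB4X, the thymosin beta-4 gene, held 190 and 169 fragments on soft, against 101 and 118 on stiff (limma adjusted p = 2.31e-07). GPBP1, a promoter-binding protein gene, held 413 and 338 on soft and 237 and 305 on stiff, and FBXO5, an inhibitor of the anaphase-promoting complex, 249 and 217 against 135 and 187. Among the 6 that were higher were NEGR1, a neuronal adhesion gene, at 57 and 42 against 80 and 135, and the start of a noncoding transcript at FRMD6, at 252 and 221 against 296 and 456. These 5 had the lowest p in the fit, so the lack of overlap between their groups is partly fixed by that choice. The contrast with all p-JUN regions depended on single libraries. Those called lower made up 7.68% in domains against 7.28% of all without stiff replicate 1, and 1.23% against 1.09% without soft replicate 2. They made up 3.29% against 1.96% without soft replicate 1 and 17.3% against 5.90% without stiff replicate 2. In total 124, 22, 53 and 258 were called in that order. Whether growth on plastic had a part in this was not tested.

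The AP-1 motif was rare under p-JUN in the domains. TGACTCA or TGAGTCA was centred within 50 bp of 6.82% and 6.31% of the p-JUN summits in domains on soft, and of 7.32% and 6.37% on stiff. Narrower regions had 7.41% and 7.64% on soft and 8.93% and 7.02% on stiff, so that the domains were lower in all 4 libraries by 0.59 to 1.60 percentage points (mean difference -1.04, two-sided exact sign-flip permutation test, p = 0.125). Outside H3K4me3 regions the share was 36.5% to 39.1%, which is 30.1 to 32.8 points above the domains. Within the domains, summits within 500 bp of a coding start had the motif in 3.74% to 3.88%, and summits further away in 14.7% to 17.6%, as at LINC00944 and MAST2 above. The median p-JUN fold in domains was 6.59 to 7.13, against 8.04 to 8.55 outside H3K4me3 regions, with 56 to 66 and 61 to 67 fragments.

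**Figure D4:**
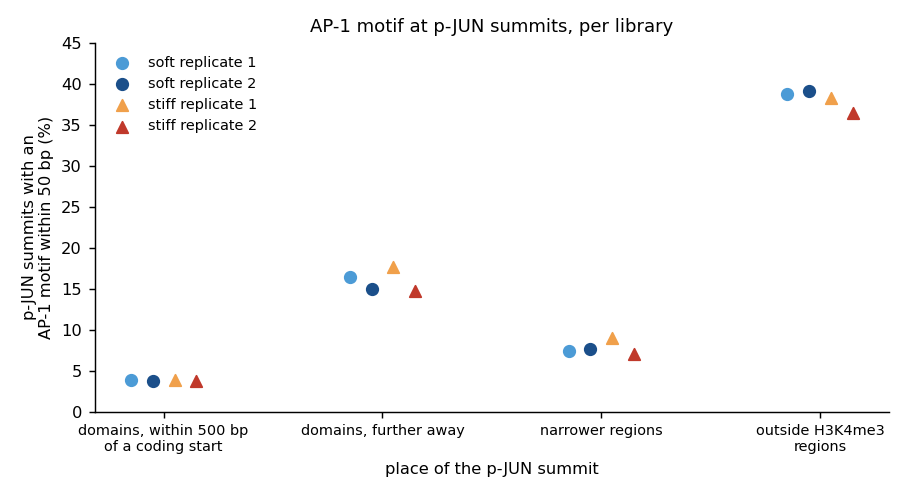
Percent of p-JUN summits with TGACTCA or TGAGTCA centred within 50 bp (y axis), by where the summit lay (x axis), 1 point per p-JUN library. Summits in domains near a coding start had the motif in under 4% in every library, those further away in domains in 14.7% to 17.6%, and those outside H3K4me3 regions in 36.5% to 39.1%.

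Promoter motifs at the domains were set beside those of narrower regions and of all coding genes. In the 250 bp before to 50 bp after 1967 starts at domains, GGGCGG, the GC box bound by SP1, was present on either strand in 76.8%, against 73.7% at narrower regions and 62.1% of all coding promoters. CCAAT, bound by NF-Y, was present in 39.0%, 38.0% and 36.0% in that order, and CACGTG, an E-box that MYC can bind, in 10.1%, 10.2% and 8.81%. TGACGTCA, as in the EPHA2 window, was present in 4.12%, 3.74% and 2.72%. TATAAA was present in 6.91% at domains, 4.31% at narrower regions and 9.51% of all coding promoters. The AP-1 motif was present in 2.44%, 2.45% and 3.54%. Searches covered both strands, and a match is only a run of letters in the window.

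H3K27ac, found at active enhancers and promoters, was called at 1085 domains by the soft list (60.8%, exact binomial 95% interval 58.5 to 63.1) and at 837 by the stiff one (46.9%, 44.6 to 49.3). The narrower regions had 41.9% and 30.8%. The stiff list was also the shorter, with 13322 peaks against 18238, and with the soft list cut to the same length the difference in the domains went from -13.9 to 0.56 percentage points. Both lists marked 763 domains, the soft list alone 322, the stiff list alone 74 and neither 625 (35.0%). With 1 list per matrix there is no test. Among the widest, ADM and ANKRD28 had H3K27ac in the stiff list alone, and TBX3 and UBL3, a ubiquitin-like protein gene, in the soft list alone. The histone domain at H2AC7 and H3C4, SSTR1, MYC and ANXA2R had none in either list, and JUN, VIM and FOSB had it in both. H3K27ac covered 16.05% (soft) and 11.2% (stiff) of the bases of all domains pooled, against 19.3% and 13.5% in the narrower regions. A wider region has more room for a peak. By regions called the domains were thus the higher, and by bases covered the lower. Around the start it was highest 200 bp upstream on soft and 300 bp upstream on stiff.

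The share of domains with H3K27ac was higher where p-JUN was called. Both H3K27ac lists marked 53.02% of the domains with p-JUN in all 4 lists, and 4.96% of those with p-JUN in none, and in the narrower regions 48.4% and 4.15%. Neither list marked 25.02% of the domains with p-JUN in all 4 lists and 78.7% of those with none. The median merged widths of these classes of domain were close, at 2299 and 2245 bp, as were their CpG counts per kb, at 72 in each. By width, H3K27ac on soft was present at 18.1% of regions under 500 bp, 61.9% at 2500 to 2999 bp and 52.9% at 3000 bp or more. On stiff it was present at 16.2%, 44.04% and 45% in that order, and highest, at 48.01%, at 2000 to 2499 bp. Regions share their libraries and are not replicates, so these shares are descriptions.

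**Figure D5:**
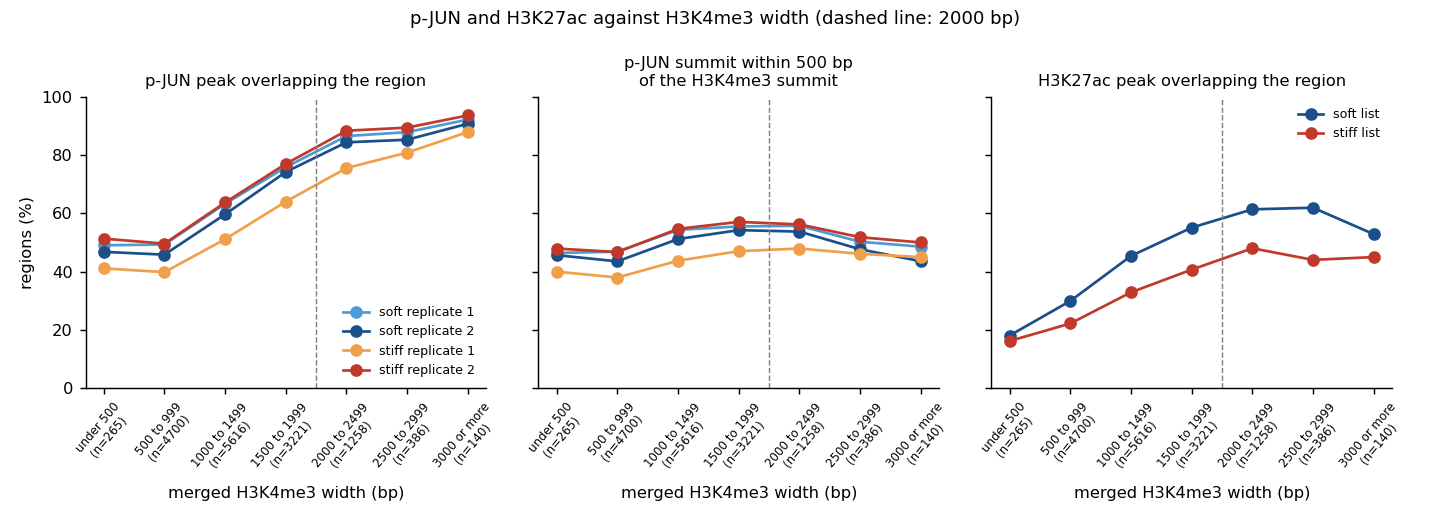
Percent of the regions in all 4 H3K4me3 lists and free of H3K27me3 with a p-JUN peak, with a p-JUN summit within 500 bp of the H3K4me3 summit, or with an H3K27ac peak (y axes), by merged width (x axis, bp, with the number of regions), 1 line per library or list. Overlap with p-JUN rose with width in all 4 libraries from 500 to 999 bp upward, to 87.9% to 93.6% at 3000 bp or more, while the fixed window gave 43.6% to 50% there.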

How the data were processed

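CUT&Tag peak lists of LX-2 cells were analysed (10000 cells per assay per the labels, a higher number in the study's methods). By the submitters' notes and the methods, the authors used Trim Galore for trimming, Bowtie2 for alignment to hg19, Picard for duplicates and MACS2 for peaks. The MACS2 version, options and control library are not given in the sources used here. Each deposited peak holds a fold (the ratio of summit to local background in its own library), a −log10 p, a −log10 q and a score that the authors' caller took from the −log10 q. No scaling was applied between lists, and deeper libraries can have more and wider peaks. Read totals were not analysed here.

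Peaks on 24 chromosomes were used. Summit fragments were solved for from the fold and −log10 p of each deposited peak, with a whole number found for at least 99.9% of peaks of each narrow list at a relative error under 1e-04. Covered width, fold and fragments were tested on the log2 scale with limma (version 3.58.1, R 4.3.3), centred on library medians, with the eBayes trend and Benjamini-Hochberg adjustment over all regions in all 4 lists, tested first on simulated data. Shares per library were compared by exact permutation tests. Scripts ran under scipy 1.17.1, pandas 2.3.3, pysam 0.24.0, numpy 2.4.6, matplotlib 3.10.9 and python 3.11.15.

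The domains and gene lists were chosen with earlier results of these data known. Named genes were the 10 widest, those nearest the 2000 bp limit, the 5 with most p-JUN peaks, the 5 widest without p-JUN or with H3K27ac in 1 list, the 5 with lowest p in each fit and members of the gene lists, of which a few are not reported here. Alternatives were other width limits, q limits, merging within 500 bp, windows, scales, normalizations, lists of equal length, left-out libraries and a replicate block. Those that combined a second scale with a left-out library were chosen after seeing the data.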

Additional observations from a re-analysis of the deposited data

How the results depend on the processing

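Of 92 alternatives run, 69 kept the direction and the side of the threshold, or for counts stayed within 1.5 times. The exact permutation tests could not reach 0.05 in any setting. For them only the direction could change, and the size of the difference was not judged. The 1784 domains became 140 at 3000 bp or more and 930 where every library had to cover 2000 bp, and 1533 to 1752 without 1 library. The share with a start site was 98.5% with all annotated genes and 89.9% with the coding start inside. The width ratio ranged from -0.0060 (without stiff replicate 2) to 0.052 on the log2 scale without 1 library, and the ratio of summit folds from 0.05 to 0.10. The difference in p-JUN share ranged from -8.49 to 2.83 points (without stiff replicate 1), domains minus narrower regions from 2.30 to 3.21 points, 14.5 points with a window of 1000 bp or -2.21 points at 3000 bp or more, and the motif difference from -1.19 to -0.85 points. The H3K27ac difference was 0.56 points with lists of equal length.

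Domains called changed in width numbered 45 with the longest peak, and 0 to 41 without 1 library (20 without soft replicate 1, 1.12% against 1.19% of all regions, and 41 without soft replicate 2, 2.30% against 1.60%). With the longest peak and without 1 library they numbered 0 to 145 (124 without soft replicate 2). Domains called changed in height numbered 110 in fragments, and 49 to 170 without 1 library (163, 170, 51 and 49 without soft replicates 1 and 2 and stiff replicates 1 and 2). p-JUN regions called in domains numbered 196 in fragments, and 53, 22, 124 and 258 likewise. The causes were not tested.

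Same-numbered libraries did not deviate together (correlation 0.02 for width, -0.05 for H3K4me3 fold and 0.00 for p-JUN fold), so numbers do not pair them. With the replicate block, 0 domains were called in width and fold and 0 p-JUN regions in fold. The paired ratios were 0.02 for width and 0.08 for fold, and the p-JUN share differed by -2.83 points. With 2 libraries per matrix no permutation test could reach 0.05, and depth was unknown beyond summit fragments.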

Other observations

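The domains were unevenly spread over the chromosomes. They made up 17.1% of the regions in all 4 H3K4me3 lists on chromosome 5 (139 of 813) and 14.1% on chromosome 14, against 5.71% on chromosome 16 (37 of 648), 7.10% on X and 7.77% on chromosome 19. Copy number of this cell line was not analysed here.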
